A study of Mus musculus with 4 samples.

Results

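The genes described here encode calcineurin, the NFAT transcription factors that it activates, and the RCAN proteins that bind and restrain it. The set holds 10 genes: the catalytic subunits Ppp3ca, Ppp3cb and Ppp3cc, the regulatory subunit Ppp3r1, the factors Nfatc1, Nfatc2, Nfatc3 and Nfatc4, and the regulators Rcan1 and Rcan2. Members were matched by gene symbol in the platform annotation, with no threshold on their values, although the set was proposed with earlier results of these data known. Each was read by 1 probe. They are 10 of 19321 named genes on the array. RNA came from ventricular muscle of male mice of the 129SV strain. There were 2 samples with a genetic deletion of Trpc6 (Trpc6-/-) and 2 wild-type samples (WT), each on 1 single-colour array. The labels give no age, no treatment and no detail of the deleted allele, and they do not say whether samples of a group came from separate animals, so p-values measure only how far these samples spread, and that spread may be technical.

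Calcineurin is a serine/threonine phosphatase switched on by calcium and calmodulin. It removes phosphates from NFAT proteins, which then enter the nucleus and act with partners such as GATA4 and MEF2, and NFAT kinases drive them back out. In heart muscle this route is known for driving hypertrophic growth, and TRPC6, a cation channel that admits calcium, is one of its known sources of calcium and also a known target gene of NFAT. The comparison asks whether transcripts of the route itself differ in the ventricle without that channel.

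Rcan1 is the member most often used as a readout of the route, because its internal start site is known to be induced by NFAT. Its 2 promoter windows are therefore shown, each from 250 bases before to 50 bases after an annotated start, in RefSeq's sequence of GRCm38.p6. Both lie on the minus strand of chromosome 16 and are written 5′ to 3′ along the gene. Capitals mark the NFAT core motif GGAAA or its reverse complement TTTCC, searched on both strands with overlaps allowed.
Rcan1 upstream start, chr16:92466120-92466419: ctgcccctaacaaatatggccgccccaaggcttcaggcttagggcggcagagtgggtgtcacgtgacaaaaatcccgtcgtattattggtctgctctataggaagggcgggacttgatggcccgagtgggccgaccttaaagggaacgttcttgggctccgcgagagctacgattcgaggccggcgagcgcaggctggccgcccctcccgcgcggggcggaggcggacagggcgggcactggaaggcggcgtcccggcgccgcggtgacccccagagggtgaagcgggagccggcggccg
Rcan1 internal start, chr16:92400029-92400328: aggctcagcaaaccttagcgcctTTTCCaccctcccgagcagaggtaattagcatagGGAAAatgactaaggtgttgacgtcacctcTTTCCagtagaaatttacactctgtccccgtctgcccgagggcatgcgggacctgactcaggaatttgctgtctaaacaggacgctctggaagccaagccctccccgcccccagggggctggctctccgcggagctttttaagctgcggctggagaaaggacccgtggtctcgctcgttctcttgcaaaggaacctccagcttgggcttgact

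The internal window held 3 copies of the motif and the upstream window held 0. Such short letters are common: 61.3% of 32851 promoter windows held at least 1 copy and 9.42% held at least 3. Of the members, 7 had 12 windows in the table, and 7 of these windows held the motif. The window of Ppp3cb held 4 copies, a count reached by 2.65% of all windows, while those of Nfatc2 and Nfatc4 held up to 3. A match is a description of the letters and does not show binding. Whether the Rcan1 probe reads transcripts of 1 start or of both is not given in sources used here.

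Detection was judged array by array. The threshold, the 95th percentile of the blank and negative control spots, was 85.5 and 83.3 units on the Trpc6-/- arrays and 80.8 and 91.5 units on the WT arrays. The median gene probe read 97.7 and 97.1 units on the Trpc6-/- arrays and 95.5 and 106 units on the WT arrays, not far above it. The Trpc6 probe, at 84.1 and 82.6 units in Trpc6-/- and 80.5 and 89.2 units in WT, was above background on 0 of 4 arrays and does not check the labels. All 8 cardiomyocyte markers were above background on all 4 arrays. The first WT array stood apart in its globin signal. Hba-a2, an alpha-globin gene, read 1411 and 1404 units in Trpc6-/- against 447 and 1275 units in WT, so the log2 fold change of each tested member is also given without that array. RNA came from whole tissue, where fewer cells of a type and less RNA per cell cannot be told apart.

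Of the 10 members, 9 were above background on all 4 arrays and were tested, and Ppp3r1 was not. The catalytic subunit gene Ppp3ca stood 1.14-fold higher in Trpc6-/- than in WT (95% interval 1.03 to 1.27), and the other 8 lay within 1.07-fold of WT. No member passed the test over all genes with limma, where the smallest adjusted p of a member was 0.727 and 0 of 15955 genes passed. At an unadjusted limma p under 0.05 there was 1 of 9 members, Ppp3ca, or 11.1%, against 6.74% of all genes tested (1076 genes), and 1 gene is too few to set the shares apart. The median log2 fold change of the 9 was 0.04 against 0.00 over all genes, and the median size of the change without its sign was 0.042 against 0.043.

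**Figure D1:**
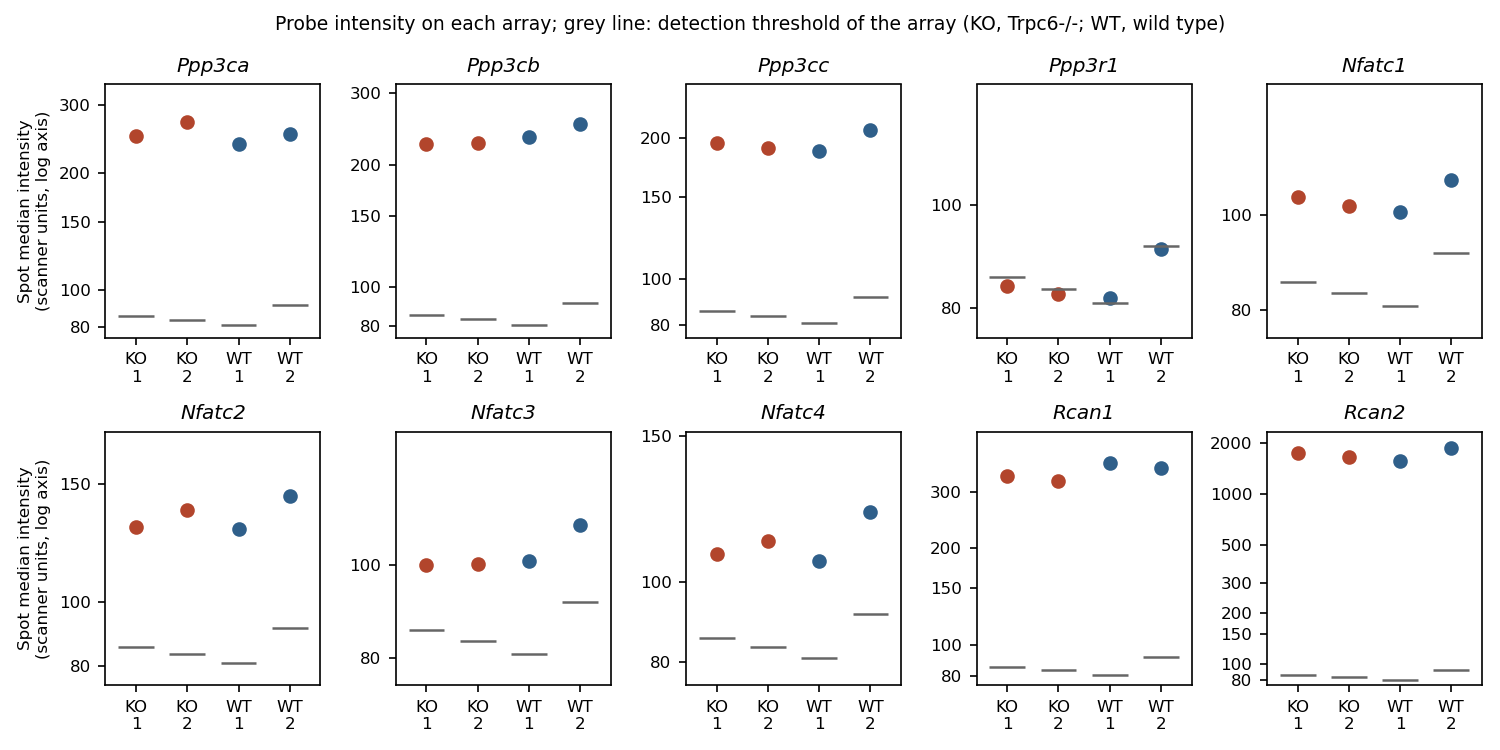
Spot median intensity of the probe of each member (scanner units, log axis) on the 2 Trpc6-/- arrays and the 2 WT arrays, 1 point per array, with a grey line at the detection threshold of that array. Points of 9 members lie above the line on every array, while those of Ppp3r1 lie close to it, above it only on the first WT array.

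The catalytic A subunits carry the phosphatase site, and Ppp3ca and Ppp3cb are the forms known from heart muscle. The Ppp3ca spot read 250.1 and 272 units in Trpc6-/- and 238 and 253 units in WT. After normalization it stood at 7.84 and 7.97 in Trpc6-/- against 7.73 and 7.69 in WT on the log2 scale. Both Trpc6-/- arrays were above both WT arrays, and the second Trpc6-/- array was the highest.

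For Ppp3ca the log2 fold change was 0.19 ± 0.06 (limma standard error, n = 2 arrays per group), with an unadjusted limma p of 0.0244 and an adjusted p of 0.727. The difference was larger than the gap of 0.13 between the Trpc6-/- arrays and of 0.04 between the WT arrays. In the authors' table, where the same spots carry no offset, it averaged 177 units in Trpc6-/- and 145 units in WT, a ratio of 1.22, with 159 and 195 units in Trpc6-/- and 157 and 133 units in WT. There the first Trpc6-/- array and the first WT array were 2 units apart. The same model fitted to that table, with a floor under its empty and lowest cells, gave an interval of the fold from 0.85 to 1.74. This interval includes no change, and the unadjusted limma p was 0.238. On the normalized scale the unadjusted limma p was 0.0634 with an intensity trend, where the standard error was 0.09, and 0.104 with an offset of 0. It was 0.0365 with an offset of 16 and 0.0212 with a common 75th percentile.

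The direction of Ppp3ca turned, to -0.20, when the background around each spot was subtracted. That local background was 194 and 160 units in Trpc6-/- against 136 and 131 units in WT, so it was higher on both Trpc6-/- arrays, as the spot was after normalization. Its part in the result was not tested. Without the second Trpc6-/- array the log2 fold change was 0.13, with an unadjusted limma p of 0.104, from 1 Trpc6-/- array and 2 WT arrays. Without the first WT array it was 0.22.

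Ppp3cb, the beta form, varied little over the 4 arrays. Its spot read 225 and 227 units in Trpc6-/- against 234 and 252 units in WT, and its normalized values were 7.67 and 7.66 in Trpc6-/- against 7.70 and 7.68 in WT. The Trpc6-/- arrays were the lower pair by a small margin. In the authors' values, 135.2 and 148.6 units in Trpc6-/- and 152.6 and 132.8 units in WT, the groups overlapped. The log2 fold change of Ppp3cb was -0.03 ± 0.04, with a 95% interval of the fold from 0.92 to 1.05 and an unadjusted limma p of 0.525. Without the first WT array it was -0.02.

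Ppp3cc, the gamma form, best known from testis, read 195 and 190.1 units in Trpc6-/- against 188 and 208 units in WT. Normalized values were 7.42 and 7.36 in Trpc6-/- and 7.34 and 7.36 in WT, so the groups overlapped. The log2 fold change was 0.04 ± 0.04, with a 95% interval of the fold from 0.95 to 1.11, and 0.03 without the first WT array. Of the A subunits, then, alpha stood higher in Trpc6-/- and the other two differed by less than the uncertainty of the fit.

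The change of one form relative to another within an array depends little on how arrays are scaled to each other. The difference of Ppp3ca minus Ppp3cb in log2 values was 0.17 and 0.31 in Trpc6-/- and 0.03 and 0.00 in WT, larger on both Trpc6-/- arrays by 0.22 on average. For Ppp3ca minus Ppp3cc it was 0.42 and 0.60 in Trpc6-/- against 0.39 and 0.32 in WT, 0.15 on average. That average was 0.06 without the second Trpc6-/- array and 0.24 without the first, so its size rested on the second Trpc6-/- array. These pairs, with that of Rcan1 and Rcan2 below, were chosen after values were seen. An exact permutation test of 2 against 2 arrays cannot give a two-sided p under 0.333. After subtraction of local background the average differences were -0.16 and -0.50, in the opposite direction.

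Ppp3r1 encodes calcineurin B, the calcium-binding subunit without which the A subunits are inactive. Its probe read 83.9 and 82.6 units in Trpc6-/- and 81.8 and 90.9 units in WT. It was above background on 1 of 4 arrays, the first WT array, and the authors' table lists 3.3 and 2.6 units in WT and no value in Trpc6-/-. No fold change is given, since the signal was not well above background.

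The NFAT probes were dim. Their spots were 1.17 to 1.65 times the detection threshold, against 2.27 to 3.26 times for the 3 catalytic subunits, and the offset added to all intensities shrinks log2 fold changes of such probes. The ratios of the authors' table are therefore given beside them.

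Nfatc1, known from endocardium and heart valves, read 104 and 102 units in Trpc6-/- against 101 and 109 units in WT. Its normalized values were 6.26 and 6.22 in Trpc6-/- and 6.23 and 6.17 in WT, and the groups overlapped. The log2 fold change was 0.04 ± 0.04, or 0.07 without the first WT array, and the ratio of authors' means was 1.08. The 8 endothelial markers were all above background on every array, 4 of them higher and 4 lower in Trpc6-/-, with a median log2 fold change of -0.02.

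Nfatc2, a form best known from T lymphocytes, read 129 and 137 units in Trpc6-/- and 128 and 144 units in WT. Its normalized values were 6.69 and 6.79 in Trpc6-/- against 6.68 and 6.71 in WT, with the second Trpc6-/- array highest and overlap of the groups. A log2 fold change of 0.05 ± 0.05 was -0.01 without that array and 0.03 without the first WT array, and the ratio of authors' means was 1.07. Of 5 T lymphocyte markers with a probe, Cd3d was above background on all 4 arrays and Cd3g and Cd2 on none. The summed signal of these 5 spots was 419.7 to 419.9 units in Trpc6-/- and 408.8 to 455.1 units in WT. These sums include background, as the median blank spot alone read 82.8 and 81.2 units in Trpc6-/- and 78.4 and 87.5 units in WT. They therefore do not measure T lymphocyte RNA.

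Nfatc3, a form known to take part in cardiac hypertrophy in mice, was the only NFAT gene without overlap of the groups. Its spot read 99.8 and 100.1 units in Trpc6-/- against 101 and 109.9 units in WT, and its normalized values were 6.17 and 6.18 in Trpc6-/- against 6.23 and 6.20 in WT. The log2 fold change was -0.04 ± 0.04 with an unadjusted limma p of 0.392, or -0.02 without the first WT array, and the ratio of authors' means was 0.889. In the authors' values, 16.1 and 19.2 units in Trpc6-/- and 21.9 and 17.8 units in WT, the groups overlapped.

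Nfatc4, the form first found as a partner of GATA4 in heart, read 108 and 112 units in Trpc6-/- and 106 and 122 units in WT. Its normalized values of 6.33 and 6.40 in Trpc6-/- and 6.33 and 6.40 in WT could not be told apart, and the log2 fold change was 0.01 ± 0.05. Without the first WT array it turned to -0.03. Across the 4 NFAT genes 95% intervals of the fold ran from 0.91 to 1.13 on the normalized scale. On the authors' scale, which has no offset, the same model gave intervals from 0.62 to 1.56. Changes of these transcripts inside that range could not be told from no change with 2 arrays per group. The interval of the bright Rcan2 ran from 0.80 to 1.52 on that scale. Its standard error was 0.2028, near the 0.2241 to 0.225 of the NFAT genes, but the model shares spread over all genes, dim ones included. Whether the width is particular to dim probes therefore cannot be read from it.

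RCAN proteins bind calcineurin directly and inhibit it when abundant. The Rcan1 spot read 336 and 323 units in Trpc6-/- against 369 and 357 units in WT, and was lower on both Trpc6-/- arrays before normalization. After it, the values were 8.31 and 8.25 in Trpc6-/- and 8.43 and 8.24 in WT. The 2 WT arrays were then the highest and the lowest of the 4, and their gap of 0.19 exceeded the group difference. The log2 fold change was -0.06 ± 0.08, with a 95% interval of the fold from 0.83 to 1.11 and an unadjusted limma p of 0.502. It was -0.15 without the second WT array and 0.04 without the first, so its sign rested on the first WT array, the one with low globin.

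Rcan2, a paralog known from brain, heart and muscle, was the brightest member over its threshold, at 19.4 to 20.4 times. Its spot read 1743 and 1655 units in Trpc6-/- and 1569 and 1866 units in WT. Its normalized values were 10.77 and 10.74 in Trpc6-/- against 10.61 and 10.72 in WT, without overlap. The authors' table gave 1578 and 1611 units in Trpc6-/- against 1464 and 1435 units in WT. This gave a log2 fold change of 0.09 ± 0.05, with a 95% interval of the fold from 0.97 to 1.18 and an unadjusted limma p of 0.148. Without the first WT array it was 0.04.

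Within arrays, Rcan1 minus Rcan2 in log2 values was -2.47 and -2.49 in Trpc6-/- and -2.18 and -2.48 in WT. The first WT array alone differed from the other 3. The average difference of -0.15 was 0.00 without it.

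**Figure D2:**
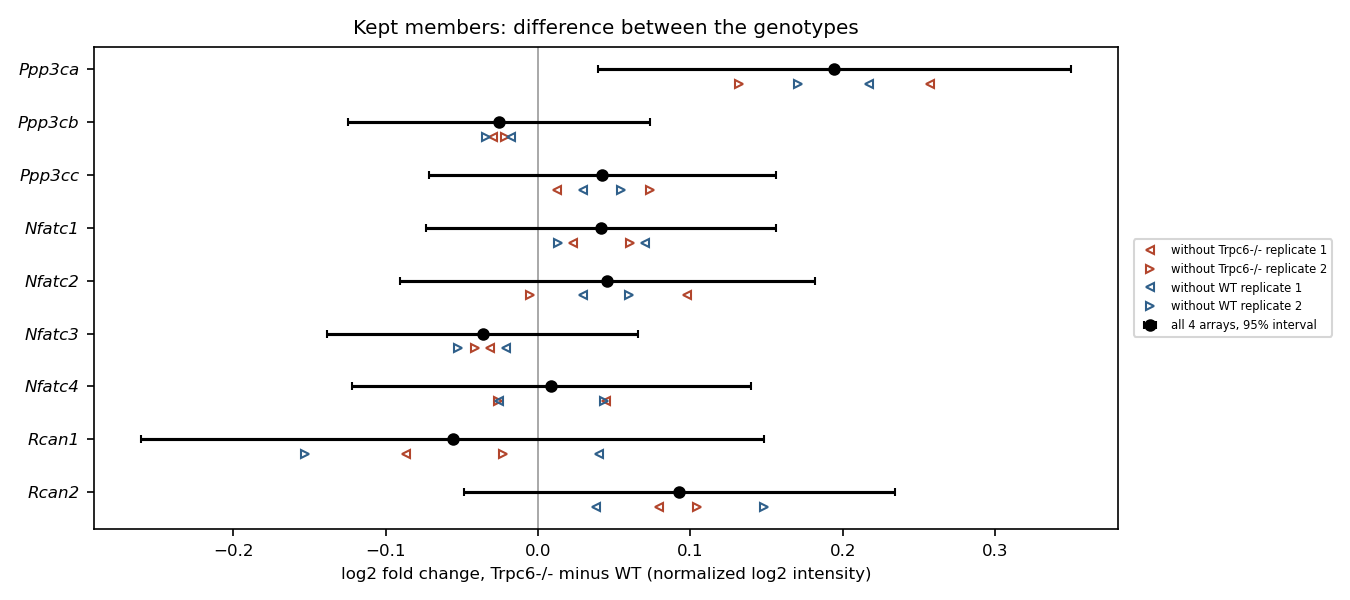
Log2 fold change of Trpc6-/- minus WT for the 9 tested members with 95% limma intervals (black), and the value without each array in turn (triangles). The interval of Ppp3ca lies above 0, from 0.04 to 0.35, and the intervals of the other 8 members include 0. Fitted to the authors' table, which is not drawn, the interval of the Ppp3ca fold ran from 0.85 to 1.74 and included no change.

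Over the 9 tested members, 4 had no overlap of the groups. This is 44.4%, near the 36.8% of all genes tested. Ppp3ca and Rcan2 were higher, where 19.4% of all genes were, and Ppp3cb and Nfatc3 lower, where 17.4% were. In the authors' values the groups of Ppp3cb and of Nfatc3 overlapped. In 3 members, Ppp3ca, Ppp3cb and Nfatc3, the difference between the groups exceeded the gap between the arrays of each group, against 23.9% of all genes tested. Of the 9, 6 had a log2 fold change above 0, against 51.1% of all genes, and 3 had one below 0, against 48.9%. All 95% intervals of the fold lay between 0.83 and 1.27 on the normalized scale, in the fit without an intensity trend. With that trend and robust variance the standard errors were larger, as 0.0931 against 0.0584 for Ppp3ca, 0.0858 against 0.0372 for Ppp3cb and 0.1075 against 0.0531 for Rcan2. On the authors' scale the intervals were wider, from 0.62 at the lowest (Nfatc3) to 1.74 at the highest (Ppp3ca).

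**Figure D3:**
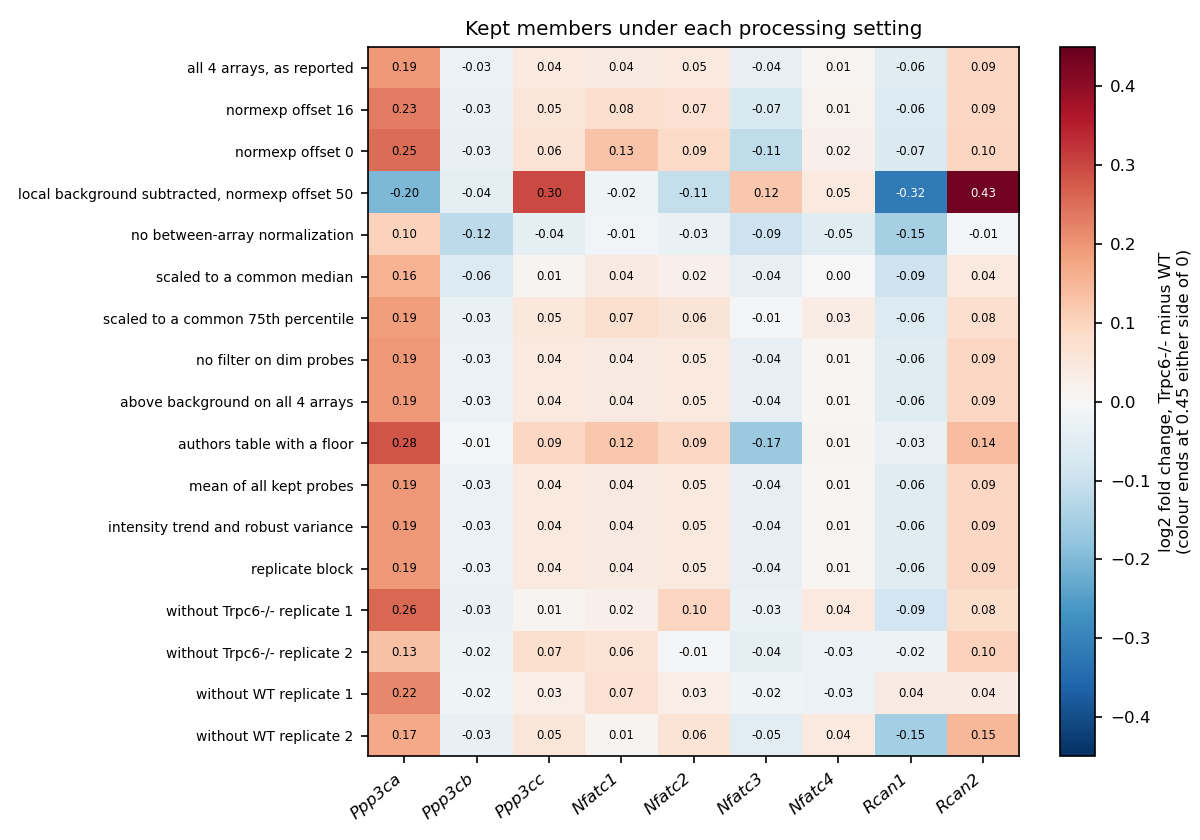
Log2 fold change of Trpc6-/- minus WT of the 9 tested members (columns) as reported and under each other processing setting or with 1 array left out (rows). Ppp3ca is above 0 in every row but that of local background subtraction, at -0.20, and Ppp3cb is below 0 in every row. The rows of the filters, the mean of probes, the variance model and the replicate block repeat the reported value by construction.

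By the closeness of centred log2 values over the 4 arrays, the genes most like Ppp3ca were Slc16a1, a monocarboxylate transporter, Rpap2, an RNA polymerase II-associated protein, and Scpep1, a serine carboxypeptidase. Ppp3ca was the member with the largest SD over arrays. Their Euclidean distances from it were 0.016, 0.025 and 0.027. As 35 of 15954 genes lay within 0.05, and 4 arrays allow few patterns, this is a description only.

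Genes around calcineurin and NFAT, outside the 10 members, lay on both sides of 0. Of 62 listed genes 58 had a named probe and 56 were tested, 28 higher and 28 lower in Trpc6-/-, with a median log2 fold change of 0.00. At an unadjusted limma p under 0.05 there were 7 of the 56 higher and 6 of the 56 lower, and none passed over all genes. These were larger shares than the 3.67% higher and 3.08% lower of all genes tested. Over all genes tested, as above, 51.1% had a log2 fold change above 0 and 48.9% below it. The lists hold genes already known to differ from earlier results of these data, so these counts are no independent evidence.

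Activators, anchors and inhibitors of calcineurin had 7 higher and 8 lower of 15 tested. Calm3, a calmodulin gene, stood at 7.95 and 7.82 in Trpc6-/- and 7.68 and 7.65 in WT, a log2 fold change of 0.22 ± 0.06. Fkbp1a, the FK506-binding protein through which tacrolimus blocks calcineurin, was at 9.64 and 9.67 in Trpc6-/- and 9.56 and 9.49 in WT. Both genes were higher on each Trpc6-/- array than on either WT array, but genes named for a small p tend to be separated so. Of the 15 tested, 4 were without overlap and higher and 4 without overlap and lower, against 19.4% and 17.4% of all genes.

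Lmcd1, a LIM protein known to promote calcineurin signalling in mouse heart, was the lowest of this list. It stood at 7.79 and 7.74 in Trpc6-/- against 8.03 and 8.14 in WT, a log2 fold change of -0.31 ± 0.06 with an unadjusted limma p of 0.00322 and an adjusted p of 0.727. Cib1, which anchors calcineurin at the sarcolemma, was at 7.12 and 7.10 in Trpc6-/- against 7.23 and 7.22 in WT. Lmcd1 turned to 0.19 when local background was subtracted, and Cib1 kept its sign under every setting, though some settings cannot change a fold.

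The kinases that phosphorylate NFAT, with the exporter Xpo1, had 8 higher and 4 lower of 12 tested, with a median log2 fold change of 0.04 that turned to -0.0038 after local background subtraction and to -0.02 without normalization between arrays. Mapk14, the p38 alpha kinase, was at 6.83 and 6.91 in Trpc6-/- and 6.72 and 6.71 in WT. Csnk1d, casein kinase 1 delta, read 159.6 and 170.4 units at the spot in Trpc6-/- and 154 and 169 units in WT. After normalization these had log2 fold changes of 0.15 ± 0.04 and 0.13 ± 0.05. Dyrk1a, whose kinase primes NFAT for export, and Xpo1 had 0.08 ± 0.06 and 0.06 ± 0.05, neither with an unadjusted p under 0.05.

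Transcription partners of NFAT had 2 higher and 8 lower of 10 tested, with a median of -0.05 that turned to 0.06 after local background subtraction. Mef2a, a cardiac transcription factor, and Jun, which pairs with NFAT as part of AP-1, had log2 fold changes of -0.26 ± 0.05 and -0.34 ± 0.09. Both were lower on each Trpc6-/- array than on either WT array, and both turned, to 0.31 and 0.39, after local background subtraction. They too were named for a small p. Of the 10 tested, 1 was without overlap and higher and 4 without overlap and lower, against 19.4% and 17.4% of all genes. Fosl2 and Jund, of the same AP-1 families, had -0.07 ± 0.04 and 0.07 ± 0.05. Gata4 itself was at 6.26 and 6.23 in Trpc6-/- and 6.32 and 6.24 in WT, and was chosen for mention after its values were seen.

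Genes reported as targets went in opposite directions, with 3 higher and 5 lower of 8 tested. Acta1, skeletal alpha-actin, and Nppa, atrial natriuretic peptide, had log2 fold changes of 0.71 ± 0.22 and 0.64 ± 0.21. With 1 array left out, Acta1 ranged from 0.44 without the first Trpc6-/- array to 0.98 without the second. Nppa ranged from 0.32 without the second Trpc6-/- array to 0.96 without the first. Edn1, endothelin 1, and Ptgs2, a prostaglandin synthase, had -0.17 ± 0.04 and -0.10 ± 0.04. Nppb and Myh7, of the same list but named outside the order of p, had -0.23 ± 0.17 and 0.01 ± 0.26, both with overlap of the groups. The 3 atrial myocyte markers that were tested had log2 fold changes from -0.45 to 0.00 with a median of -0.12, none with an unadjusted limma p under 0.05. Their mean log2 values were 6.51 and 6.44 in Trpc6-/- and 6.49 and 6.84 in WT, with the second WT array apart from the other 3. Myl4, an atrial myosin light chain, read 123 and 107 units in Trpc6-/- and 108 and 219 units in WT. Rcan1, known as a target by its internal start, lay between them at -0.06, or 0.04 without the first WT array. As the start that its probe reads is not given, this value cannot be assigned to the internal start.

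**Figure D4:**
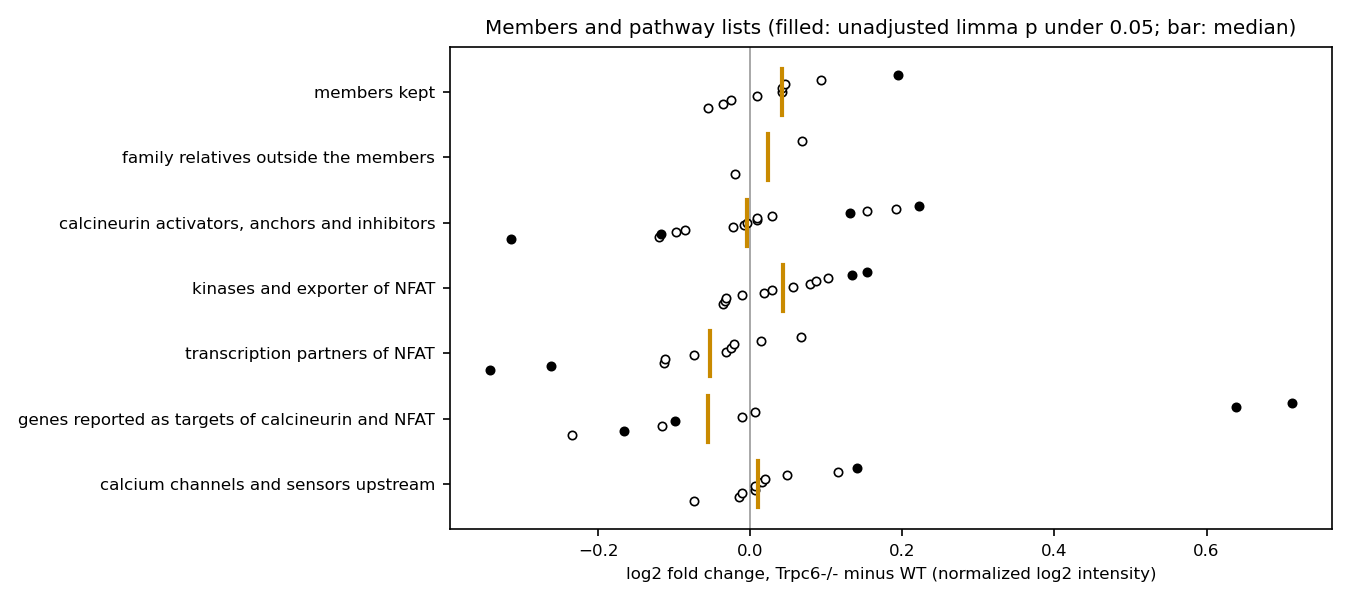
Log2 fold change of Trpc6-/- minus WT for each tested member and each tested gene of the 6 pathway lists, 1 point per gene, filled where the unadjusted limma p was under 0.05, with the median of each list as a bar. The members span -0.06 to 0.19, and the targets span -0.23 to 0.71.

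Among calcium channels and sensors upstream of calcineurin 7 were higher and 3 lower of 10 tested, with a median of 0.01. Stim1, the calcium sensor of store-operated entry, was at 6.60 and 6.50 in Trpc6-/- and 6.40 and 6.43 in WT, a log2 fold change of 0.14 ± 0.05. Cacna1c, the L-type channel subunit, had 0.12 ± 0.08, but 0.01 without the second WT array, its lowest, and 0.22 without the first. Itpr2, an IP3 receptor, had 0.05 ± 0.06. Trpc1 and Trpc5 had -0.01 ± 0.04 and -0.07 ± 0.04. Of the relatives of the members, Nfat5, which responds to osmotic stress, and Rcan3 had 0.07 ± 0.04 and -0.02 ± 0.05, and Ppp3r2, a testis form of calcineurin B, was above background on 0 of 4 arrays.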

How the data were processed

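Total RNA was amplified, labelled with Cy5 and hybridised to Toray arrays, per the labels. The authors deposited the median pixel intensity of each of 27456 spots and of its local background, per the file headers, and a table of processed intensity. That table was a straight line of the deposited spot medians, with residuals of at most 0.0523 units: 78.4 to 87.8 units subtracted and the rest scaled by 0.807 to 1.02 to a column median of 25. The rule by which cells of dim probes were left empty is not given in sources used here. Between 3714 and 4955 gene probes per array were empty. For the fit to that table, empty cells and values under its 1st percentile, 2.2 units, were set to 2.2 units. Those filled cells enter the spread that the model shares over all genes.

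Spot medians were corrected with normexp (limma 3.58.1, R 4.3.3, offset 50, all spots), averaged per probe, quantile normalized over 23473 gene probes and put on a log2 scale. Local background was left alone, since it followed the spots (correlation across spots of log2 values 0.931 to 0.967). Probes above background on at least 2 arrays were kept: 19117, of which 16999 carried a symbol, updated by gene ID. The brightest probe stood for a gene, and 15955 genes were fitted with lmFit and eBayes without covariates. P-values are two-sided and adjusted by Benjamini-Hochberg over all genes. The steps were tested on simulated data. The number of arrays limits the precision.

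Members and lists were chosen with earlier results of these data known. Named are all members, Trpc6, genes shared by lists, up to 4 genes per list in order of p, and the 3 genes most like 1 member. Gata4, Nppb, Myh7 and marker genes are named outside this rule. Same-numbered arrays deviated together with a correlation of 0.0839, and the labels do not pair them. Alternatives changed background, normalization, filter, source of values, probe choice and variance model, added the replicate number, or left out each array.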

Additional observations from a re-analysis of the deposited data

How the results depend on the processing

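The log2 fold changes of 30 named genes were recomputed under 16 alternatives, and those of Nfat5 and Itpr2, not above background on all 4 arrays, under 15. This gave 510 values, of which 478 kept their sign and 32 did not. Many of the kept signs were fixed in advance. The changes of filter and variance model and the replicate block left these log2 fold changes as they were. So did the mean of probes for genes with 1 probe, as all members have. The share of kept signs is therefore no measure of robustness. No gene passed over all genes under any alternative, where the smallest adjusted limma p was 0.0626, and adjusted p-values of members ranged from 0.318 to 1. Genes at an unadjusted limma p under 0.05 numbered 585 higher and 491 lower. There were 113 and 1261 without normalization between arrays, 397 and 676 with a common median, 718 and 415 with a common 75th percentile, 511 and 539 with an offset of 16, 479 and 553 with an intensity trend, and 218 and 467 in the authors' table. With 1 array left out they ranged from 249 to 1139 higher and 195 to 1199 lower. Members in that count, 1 as reported (Ppp3ca), were 0 with an offset of 0, with a common median, in the authors' table and with an intensity trend, and 0 to 2 with 1 array left out. It was 0 without the second Trpc6-/- array and 2 without the second WT array, then Rcan1 and Rcan2. The count was also 1 after local background subtraction and without normalization between arrays, but the gene was then Rcan2 (0.43, p 0.0255 by limma) and Rcan1 (-0.15, p 0.0456 by limma), not Ppp3ca.

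After local background subtraction the sign turned for Ppp3ca (-0.20), Nfatc1 (-0.0201), Nfatc2 (-0.11), Nfatc3 (0.12), Rcan3 (0.0448), Lmcd1 (0.19), Xpo1 (-0.17), Mef2a (0.31), Jun (0.39), Ptgs2 (0.0008), Trpc1 (0.11) and Cacna1c (-0.0711). Without normalization between arrays, where the median of all genes was -0.05, it turned for Ppp3cc (-0.0396), Nfatc1 (-0.014), Nfatc2 (-0.0301), Nfatc4 (-0.0529), Rcan2 (-0.0101), Dyrk1a (-0.0059), Xpo1 (-0.0335) and Jund (-0.0165). Rcan3 was 0.0052 with a common median and 0.0384 with a common 75th percentile, where Trpc1 was 0.0072. With 1 array left out, Nfatc2 ranged from -0.0055 to 0.098, Nfatc4 from -0.026 to 0.0444, Rcan1 from -0.15 to 0.0398, Rcan3 from -0.0531 to 0.0138, Trpc1 from -0.0405 to 0.0177 and Itpr2 from -0.0256 to 0.12. The cause of these turns was not tested. List medians turned for kinases, partners (both given with those lists), targets (0.0569 after local background subtraction, 0.0104 without the second WT array) and channels (-0.0047 after local background subtraction, -0.001 without the second WT array and -0.0174 without normalization between arrays). That of activators, -0.0039, ranged from -0.0593 to 0.0271, so it turned too. That of the family relatives, 0.0238, turned to -0.0206 with the filter on all 4 arrays, where only Rcan3 was left. Without normalization between arrays it was -0.0007. Without a change of sign, leaving out 1 array moved Xpo1 to as low as 0.0043, Jund to 0.0105, Dyrk1a to 0.0174, Nfat5 to 0.0359, Csnk1d to 0.0855, Stim1 to 0.0926 and Trpc5 to -0.0424. Ppp3cb kept its sign under all 16 alternatives, from -0.1162 to -0.0062, but several of these could not change its value. With the replicate number as a block, the unadjusted p of Ppp3ca was 0.0333 and its adjusted p 0.684, there were 628 genes higher and 520 lower, and no adjusted call changed. Cib1 (0.0607), Fkbp1a (0.0607), Csnk1d (0.0624), Ptgs2 (0.0939) and Stim1 (0.062) then no longer had an unadjusted limma p under 0.05.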
